A study of Mus musculus with 6 samples.

Results

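Trem2, Tyrobp, Clec7a, Lpl, Fabp5, Cd68, Cst7, Gpnmb, Lgals3 and Spp1 are genes that microglia and macrophages raise when they take up myelin debris. The 10 genes were taken as a group, and each was read from the brightest of its probe sets that carry a single gene symbol. Of the 10 genes, 9 were measured in this way, out of 22180 genes with such a probe set, and Spp1, which encodes the secreted matrix protein osteopontin, was not analysed here. The study asked what astrocytes do in early myelin repair. Lesions were made with the myelin-stripping agent LPC in mouse brains at an age of 5 to 6 weeks. The mice were wild type or transgenic for a construct with which non-proliferative GFAP+ astrocytes can be driven into apoptosis. Both genotypes received CID, the compound that sets off the ablation, 48 hours after the lesion, and both were collected 7 days after the lesion, so the wild type group carries the lesion and the compound but not the transgene. The driver of the transgene is not given in the sources used here. Total RNA of 1 macrodissected lesion was hybridised to each of 6 Affymetrix arrays, 3 wild type and 3 transgenic. The labels do not say whether 1 animal gave 1 lesion, and the p-values therefore cover the spread between these samples, which may be technical.

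Levels are log2 intensities, so that a difference of 1 is a 2-fold difference, and all differences are transgenic minus wild type. Myelin that has been stripped from axons must be cleared before new sheaths form, and microglia and infiltrating macrophages do most of that work. TREM2 is a lipid-sensing receptor on these cells. It has no signalling tail of its own and signals through the adaptor DAP12, the product of Tyrobp, which recruits the kinase SYK. Phagocytes that have taken up myelin through this and other receptors expand their lysosomes, handle large amounts of cholesterol and fatty acids, and turn on the genes described here.

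On these arrays the myelin-phagocyte genes varied widely among lesions of 1 genotype. In all 9 genes, and in 64.3% of all probe sets, the range over the 3 wild type lesions and the range over the 3 transgenic lesions were each wider than the difference between the group means. Wild type replicate 1 and transgenic replicate 1 were the 2 highest arrays in 6 of the 9 genes, which was so in 8.02% of all 41345 probe sets. Transgenic replicate 3 was the lowest array in 6 of the 9, against 11.7% of all probe sets. No member differed between the genotypes at an adjusted p under 0.05 in limma, where 0% of all probe sets passed. At an unadjusted p under 0.05 there were 0 members, against 8.87% of all probe sets (percent of 41345). The transgenic and wild type arrays overlapped in every one of the 9 genes, whereas the groups did not overlap in 16.1% of all probe sets, with the transgenic arrays lower in 7.6% and higher in 8.54%.

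**Figure D1:**
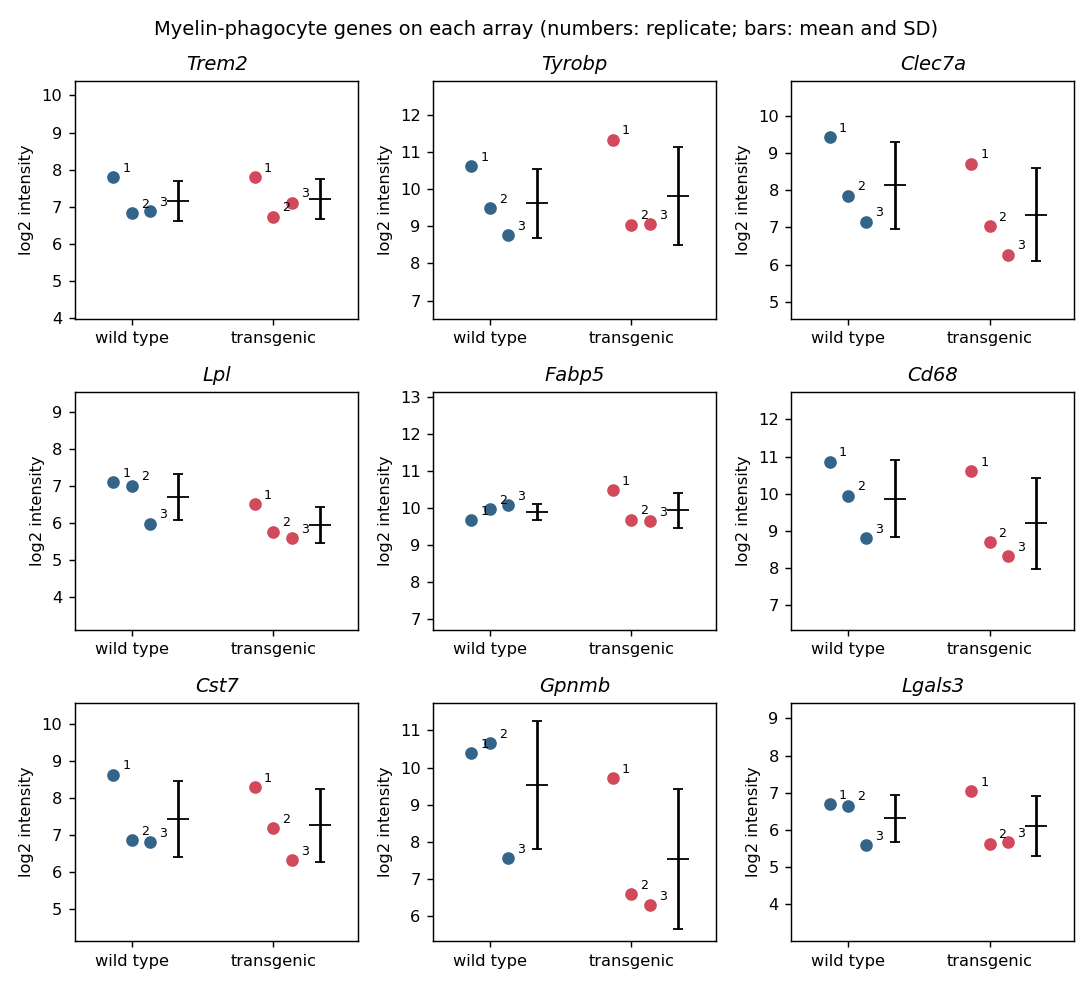
Log2 intensity of the 9 measured myelin-phagocyte genes on each array, with wild type in blue and transgenic in red, points numbered by replicate, and the mean and SD of 3 arrays as a black bar. Every panel spans the same number of log2 units; Gpnmb spreads most, from 6.29 to 10.66, and the groups overlap in all 9 panels.

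The stretches just before the transcription starts of the members are shown for the genes with an entry in the RefSeq promoter table. These were 6 of the 9 measured members, from build GRCm38.p6, and each sequence holds the 150 bases before the start, written 5′ to 3′ on the strand of the gene. Capitals mark GAGGAA on either strand, 1 form of the site bound by PU.1, the master transcription factor of myeloid cells, and TGANTCA on either strand. Other forms of the PU.1 site were not searched. TGANTCA, with N any base, is a looser form of the site of AP-1, a factor of activated cells. The usual site has G or C in place of N.
Trem2, chr17:48346251-48346400, plus strand: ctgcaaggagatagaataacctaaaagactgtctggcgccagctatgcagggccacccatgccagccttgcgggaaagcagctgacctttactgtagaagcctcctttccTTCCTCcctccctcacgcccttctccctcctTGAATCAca
Clec7a, chr6:129472786-129472935, minus strand: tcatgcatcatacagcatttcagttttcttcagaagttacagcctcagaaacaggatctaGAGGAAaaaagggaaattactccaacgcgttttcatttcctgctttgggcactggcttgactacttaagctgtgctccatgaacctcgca
Cd68, chr11:69666171-69666320, minus strand: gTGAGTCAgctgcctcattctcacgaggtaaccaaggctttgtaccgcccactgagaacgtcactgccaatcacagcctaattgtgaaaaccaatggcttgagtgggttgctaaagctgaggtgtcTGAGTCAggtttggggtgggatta
Cst7, chr2:150570265-150570414, plus strand: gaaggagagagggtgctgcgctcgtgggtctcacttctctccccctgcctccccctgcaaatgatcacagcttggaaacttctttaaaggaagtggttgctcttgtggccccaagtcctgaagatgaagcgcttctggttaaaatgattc
Gpnmb, chr6:49036368-49036517, plus strand: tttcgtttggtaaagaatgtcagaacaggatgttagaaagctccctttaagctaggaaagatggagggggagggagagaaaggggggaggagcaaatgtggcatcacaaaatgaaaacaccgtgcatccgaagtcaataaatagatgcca
Lgals3, chr14:47373710-47373859, plus strand: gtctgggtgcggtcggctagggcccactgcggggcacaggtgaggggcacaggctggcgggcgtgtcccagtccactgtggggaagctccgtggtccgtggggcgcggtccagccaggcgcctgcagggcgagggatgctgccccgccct

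GAGGAA stood in the windows of Trem2, on the opposite strand 40 to 35 bases before the start, and of Clec7a, 90 to 85 bases before it. Of all 32851 promoter windows of this length, 14.5% held it. TGANTCA occurred once in Trem2 and at 2 places in Cd68, with the nearer one 24 to 18 bases before the start, and in 4.24% of all windows. The match in Trem2 is TGAATCA, which is not the usual AP-1 site, and those in Cd68 are TGAGTCA, which is. CACGTG, the E-box read by lysosomal and pigment-cell factors, was also searched on both strands. It was in 0 of the 6 windows and in 4.3% of all windows. These matches are descriptions of the letters in the windows and do not show binding.

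Among the receptors and their adaptor, Trem2 and Tyrobp had nearly equal group means. Trem2 in replicates 1, 2 and 3 read 7.79, 6.82 and 6.88 for wild type and 7.79, 6.73 and 7.11 for transgenic lesions; values of the other genes follow the same order. The 2 replicates numbered 1 were the highest arrays, and the other 4 lay within 6.73 to 7.11 with the genotypes interleaved. The means were 7.16 ± 0.54 and 7.21 ± 0.54 (SD, n = 3), a difference of 0.05 (SE 0.35, 95% confidence interval -0.78 to 0.87), and limma gave an adjusted p of 0.982. The sign of this difference turned without wild type replicate 2 (-0.12), without wild type replicate 3 (-0.10) and without transgenic replicate 1 (-0.25). The interval does not show equal expression, since it spans nearly 1 log2 unit on either side.

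Tyrobp, the adaptor, read 10.61, 9.48 and 8.76 in the wild type lesions and 11.33, 9.04 and 9.05 in the transgenic lesions. Transgenic replicate 1 was the highest of the 6 arrays, while the other transgenic arrays lay inside the wild type range. Its means of 9.62 ± 0.93 and 9.81 ± 1.32 (SD, n = 3) differed by 0.19 (SE 0.70), with an adjusted p of 0.962 in limma. Within the genotypes the highest lesion exceeded the lowest by 3.59-fold in wild type and 4.88-fold in transgenic lesions. Without transgenic replicate 1 the difference was -0.57 and without wild type replicate 3 it was -0.24.

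Clec7a, the receptor Dectin-1 for fungal glucans that phagocytes raise around damaged myelin, ranged more widely than Trem2. It read 9.43, 7.86 and 7.15 in wild type and 8.72, 7.03 and 6.27 in transgenic lesions. The replicates numbered 1 were again the highest arrays, and transgenic replicates 2 and 3 lay below all wild type arrays. The difference was -0.80 (SE 0.74, interval -2.55 to 0.94), from 8.14 ± 1.17 to 7.34 ± 1.25 (SD, n = 3), and limma gave an adjusted p of 0.803. It was -0.16 without wild type replicate 1, -0.27 without transgenic replicate 3, -1.30 without wild type replicate 3 and -1.49 without transgenic replicate 1. Each genotype alone covered more than this, a 4.87-fold range in wild type and 5.46-fold in transgenic lesions.

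Of the genes of lipid uptake and transport, Lpl had the smallest p of all members and Fabp5 the smallest spread. Lpl, the lipase that frees fatty acids from lipoproteins, read 7.10, 7.01 and 5.99 in wild type and 6.51, 5.77 and 5.59 in transgenic lesions. Wild type replicates 1 and 2 were above all transgenic arrays, and wild type replicate 3 lay among them. The means of 6.70 ± 0.62 and 5.95 ± 0.49 (SD, n = 3) differed by -0.75 (SE 0.36), or 1.68-fold. Its unadjusted p of 0.0745 was the smallest of the 9 genes, with an adjusted p of 0.605 in limma. The other probe set of Lpl gave a difference of -1.08 (SE 0.52). Lpl is also made by other brain cells, so its level is not that of phagocytes alone.

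Fabp5 encodes a carrier of fatty acids inside cells. It stood at 9.67, 9.97 and 10.07 in wild type and at 10.48, 9.69 and 9.64 in transgenic lesions, and wild type replicate 1 was here among the lower arrays. The difference was 0.03 (SE 0.25) with an adjusted p of 0.981 in limma. Its 4 probe sets disagreed in sign, with the 2 brightest at 0.03 and 0.05 and the others at -0.29 and -0.08. The 2 brightest put transgenic replicate 1 highest, and the third, at 9.83 on that array, did not. Fabp5 has close pseudogene copies that can share probes, so its values are uncertain.

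Of the lysosomal members, Gpnmb had the widest range of all 9 genes, and Cd68 and Cst7 spanned 2.55 and 2.29 over the 6 arrays. Cd68, a heavily glycosylated protein of phagocyte lysosomes, read 10.86, 9.95 and 8.80 in wild type and 10.60, 8.69 and 8.31 in transgenic lesions. The order was the same as for Clec7a, with the replicates numbered 1 on top and transgenic replicates 2 and 3 at the bottom. The means of 9.87 ± 1.03 and 9.20 ± 1.22 (SD, n = 3) differed by -0.67 (SE 0.70), and limma gave an adjusted p of 0.829. Single arrays moved it to -0.18 (without wild type replicate 1), -0.42 (without transgenic replicate 2), -0.22 (without transgenic replicate 3), -1.20 (without wild type replicate 3) and -1.37 (without transgenic replicate 1).

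Cst7, which encodes cystatin F, an inhibitor of lysosomal cathepsins, read 8.63, 6.87 and 6.81 in wild type and 8.29, 7.19 and 6.33 in transgenic lesions. Here the replicates numbered 1 stood more than 1 log2 unit above the other 4 arrays. The difference was -0.17 (SE 0.62) with an adjusted p of 0.962 in limma, and it was 0.43 without wild type replicate 1 and 0.30 without transgenic replicate 3.

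Gpnmb, a membrane glycoprotein of lysosomes and phagosomes, had the largest mean difference and the largest spread of the members. It read 10.38, 10.66 and 7.55 in wild type and 9.71, 6.59 and 6.29 in transgenic lesions. Within each genotype the lesions fell far apart, with 2 high and 1 low in wild type and 1 high and 2 low in transgenic lesions. Transgenic replicate 1 was above wild type replicate 3 by more than 2 log2 units. The means of 9.53 ± 1.72 and 7.53 ± 1.89 (SD, n = 3) differed by -2.0 (SE 1.10, interval -4.58 to 0.58), a 4.0-fold difference at an unadjusted p of 0.11 and an adjusted p of 0.653 in limma. The range was 8.65-fold in wild type, 10.7-fold in transgenic lesions and 20.7-fold over the 6 arrays. Without transgenic replicate 1 the difference was -3.09 (unadjusted p 0.0153, adjusted p 0.368 in limma), and leaving out each array in turn gave -3.09 to -1.38.

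Lgals3, the secreted lectin galectin-3, which phagocytes release at sites of debris uptake, was the remaining measured member. It read 6.69, 6.65 and 5.58 in wild type and 7.04, 5.62 and 5.66 in transgenic lesions. As for Gpnmb, 2 wild type arrays and 1 transgenic array were high and the others low. The difference was -0.20 (SE 0.46), with an adjusted p of 0.93 in limma.

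Over the 9 members the median difference was -0.20, against -0.01 over all probe sets, and 6 of 9 means were lower in transgenic lesions against 51.1% of all probe sets. Exact permutation of the arrays, two-sided and with 20 possible assignments, gave p-values from 0.2 to 1 for single members, where 3 against 3 cannot go below 0.1. The difference between the group means made up a median of 2.78% of a member's variance over the 6 arrays, against a median of 16.2% over all probe sets. This share was highest for Lpl (40.3%) and Gpnmb (31.5%), each with an exact permutation p of 0.2. It was under 3% for Trem2, Tyrobp, Cst7, Lgals3 and Fabp5.

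**Figure D2:**
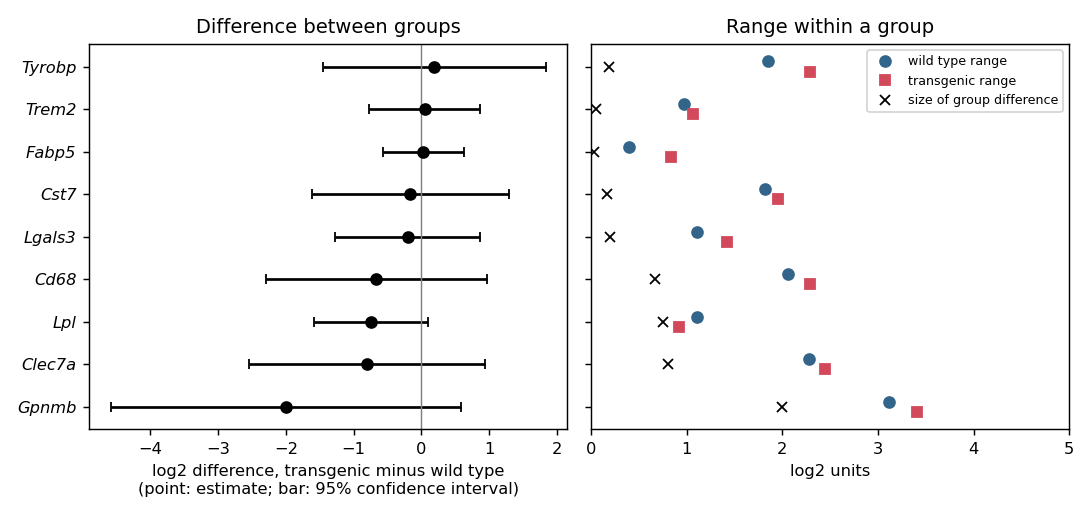
Left, the difference of each gene in log2 units, transgenic minus wild type, with its 95% confidence interval from limma. Right, the range over the 3 wild type arrays (blue circles) and over the 3 transgenic arrays (red squares) beside the size of that difference (crosses), in log2 units; all 9 intervals include 0, and in all 9 genes both ranges exceed the difference.

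The spread within the genotypes was large for these genes. The SD over 3 wild type lesions had a median of 0.93 in the members and 0.15 over all probe sets, and over 3 transgenic lesions 0.98 and 0.26. Of all 41345 probe sets, 11 had a larger within-group SD than Gpnmb (1.81), 264 than Clec7a (1.21), 321 than Tyrobp (1.14) and 331 than Cd68 (1.13). Fabp5 (0.36) and Trem2 (0.54) lay at the 77.2 and 91.7 percentiles. The transgenic SD was the larger in 6 of 9 members, against 71.6% of all probe sets.

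The mean of the 9 members was 9.02, 8.36 and 7.51 over the wild type lesions, in replicate order, and 8.94, 7.37 and 7.14 over the transgenic lesions. Genes of a list called pan-myeloid here, such as Aif1, Itgam and the C1q chains, were also highest on average in the replicates numbered 1. The list is not a count of myeloid cells. The mean of these 14 genes was 8.91, 7.83 and 7.57 in wild type and 8.44, 7.53 and 7.48 in transgenic lesions, with 12 of 14 highest in wild type replicate 1 and 2 of 14 in transgenic replicate 1. Their mean differed by -0.29 between the groups, and by 0.11 without wild type replicate 1. In bulk tissue, fewer cells of a type and less RNA per cell cannot be told apart, so these arrays do not separate the number of phagocytes from their state.

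Genes of resting microglia, such as P2ry12 and Tmem119, are ones that microglia lower on activation. The mean of the 10 measured genes was 8.74 in wild type replicate 1 and 7.48 to 7.49 in the other wild type lesions. In transgenic replicate 1, where the member mean was 8.94, it was 7.73, against 7.45 to 7.47 on the other transgenic arrays. The 2 lesions with the highest member levels thus differed by 1.01 in resting microglia genes, with 1 lesion on each side and no test possible. All 10 genes had lower means in transgenic lesions, against 51.1% of all probe sets, and 0 of them passed the adjusted threshold in limma. All 10 were also highest in wild type replicate 1, and without that array the difference of the list mean turned from -0.35 to 0.07. Those with the smallest p-values were the transcription factor Sall1 (-0.52, SE 0.25), the selectin ligand Selplg (-0.62, SE 0.36) and Tmem119 (-0.26, SE 0.17). For Sall1 and Tmem119 all transgenic arrays lay below the wild type arrays, as in 7.6% of all probe sets.

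Among markers of infiltrating and border cells, the monocyte and macrophage list averaged 5.16 to 5.49 over the 6 arrays and the neutrophil list 4.04 to 4.64. The array medians over all probe sets were 5.34 to 5.59, so many of these genes read low and their differences are uncertain. Both lists were highest in transgenic replicate 1. Of 13 monocyte and macrophage genes, 6 had lower and 7 higher means. The platelet factor Pf4, also made by border macrophages, differed by 0.52 (SE 0.14, unadjusted p 0.00696, adjusted p 0.433 in limma) and was higher on every transgenic array, as in 8.54% of all probe sets. Chil3 differed by -0.29 and the integrin Itga4 by 0.29. Of 9 neutrophil genes 7 were lower, with Mmp9 at -0.20, Retnlg at -0.15 and Camp at -0.09. Of 8 T cell genes, whose mean was 4.54 to 5.14, 5 were lower, with Cd2 at 0.32, Nkg7 at 0.13 and Cd3e at -0.09. The adjusted threshold in limma was passed by 0 genes of these lists, and the part of these cells in the member levels was not tested.

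**Figure D3:**
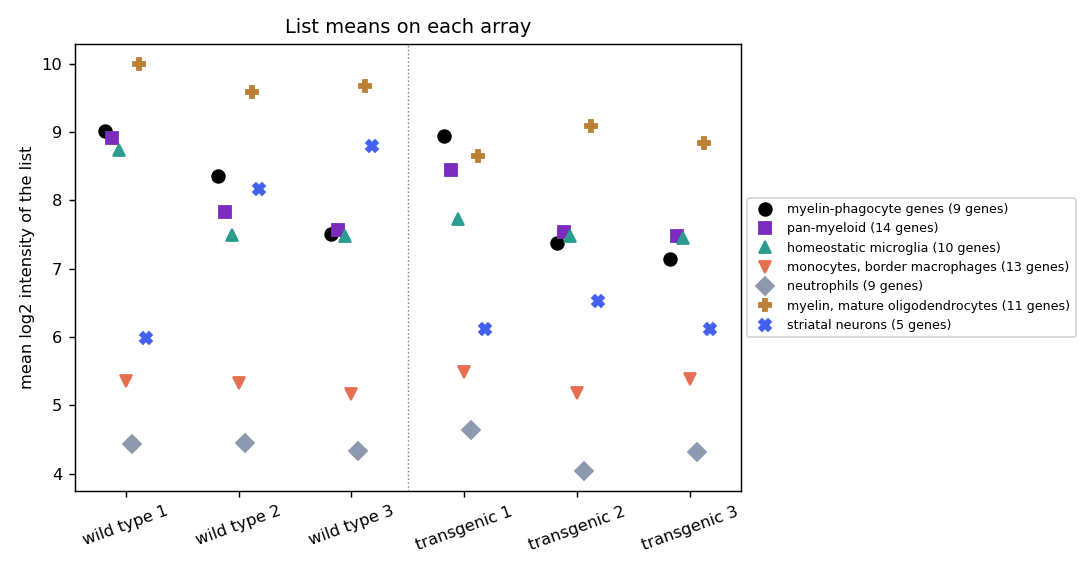
Mean log2 intensity of the 9 measured myelin-phagocyte genes and of 6 lists of cell type markers on each array, with wild type left and transgenic right of the dotted line. The member mean (black circles) is high in wild type replicate 1 (9.02) and transgenic replicate 1 (8.94), while the mean of resting microglia genes (green triangles) is 8.74 in the first and 7.73 in the second.

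Set against the pan-myeloid markers of the same array, most members varied less. The range over the 6 arrays was smaller than before this subtraction in 8 of 9 genes, with a median of 1.33 in place of 2.29. Gpnmb kept its spread, at 1.46, 2.84 and -0.02 relative to the markers in wild type and 1.27, -0.94 and -1.19 in transgenic lesions. The groups still overlapped, since transgenic replicate 1 was above wild type replicate 3, and the exact permutation p of the difference of -1.71 was 0.2. In limma this difference had an unadjusted p of 0.00297 and an adjusted p of 0.574, but there every gene took the same SE of 0.58. Tyrobp was highest in transgenic replicate 1, at 2.89 against 1.19 to 1.70 on the other arrays. Trem2 was at -1.12, -1.01 and -0.70 in wild type and -0.65, -0.80 and -0.38 in transgenic lesions, where 1 pair of arrays overlapped and the exact permutation p was 0.2. Fabp5 was the gene whose range grew, to 1.73. After this subtraction 4 of 9 members and 14.8% of all probe sets were lower in transgenic lesions, and the median of all probe sets shifted to 0.28, so that signs on this scale are relative to that shift.

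**Figure D4:**
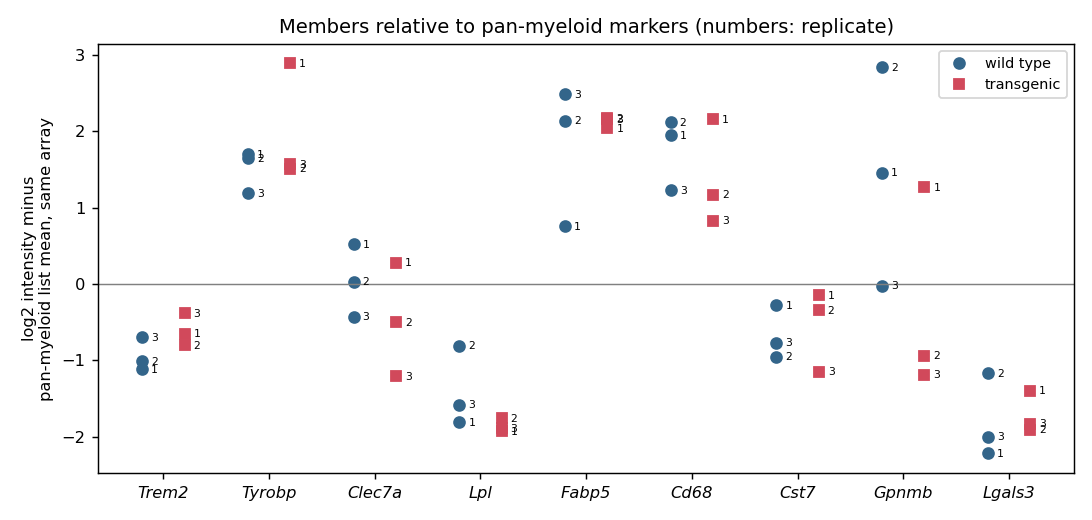
Log2 intensity of each myelin-phagocyte gene minus the mean of 14 pan-myeloid markers on the same array, with wild type as blue circles and transgenic as red squares, numbered by replicate. Gpnmb runs from -1.19 to 2.84, and Tyrobp is highest in transgenic replicate 1 at 2.89.

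Other genes of the TREM2 and DAP12 pathway had list means that spanned 0.59 over the arrays, where the member mean spanned 1.88. The list of 15 measured genes held kinases and phosphatases downstream of DAP12, the sheddases that cut TREM2 and the lipid-carrying ligand clusterin. Its mean ran from 6.31 to 6.89, with 10 genes lower, 5 higher and 0 past the adjusted threshold in limma. Adam17, a sheddase of TREM2, had the smallest p, at 7.16, 6.61 and 6.43 in wild type and 6.08, 6.23 and 6.28 in transgenic lesions. All of its transgenic arrays lay below the wild type arrays, as in 7.6% of all probe sets, and the difference of -0.54 (SE 0.21) had an unadjusted p of 0.0378 and an adjusted p of 0.538 in limma. Inpp5d, the phosphatase SHIP1 that restrains this signal, differed by -0.61 (SE 0.29), and Clu, the gene of clusterin, by -0.31 (SE 0.19). The transgenic arrays of Clu, at 9.95, 10.55 and 10.51, also all lay below the wild type arrays, at 10.63, 10.69 and 10.63. The lowest of them was transgenic replicate 1, where a list of astrocyte genes was lowest too (8.0). The part of astrocytes in the level of Clu was not tested.

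Of 17 other genes of activated phagocytes, all 17 read lower on average in the transgenic group, against 51.1% of all probe sets. Their median difference was -0.28, with 0 past the adjusted threshold, and 9 of the 17 were highest in wild type replicate 1. Their list mean followed the members, at 7.77, 7.55 and 6.83 in wild type and 7.53, 6.76 and 6.70 in transgenic lesions. The difference was -0.59 (SE 0.27) for both the growth factor Csf1 and the tetraspanin Cd9 and -0.53 (SE 0.26) for the integrin Itgax. Single genes did not all follow the members. Csf1 was lowest in transgenic replicate 1 (5.92), where the member mean was high (8.94), whereas Cd9 was second highest there (9.61). Genes of lysosomes and lipid clearance had 21 of 21 lower means, a median of -0.46, and list means of 8.42, 8.03 and 7.55 against 7.96, 7.41 and 7.38. Of these genes, 15 of 21 were highest in wild type replicate 1. Npc1, which exports cholesterol from lysosomes, differed by -0.77 (SE 0.25, unadjusted p 0.0176, adjusted p 0.491 in limma). Its lowest array was also transgenic replicate 1 (6.86). The lysosomal lipase Lipa differed by -0.62 (SE 0.28) and the factor Tfec by -0.36 (SE 0.17). In Npc1 and Tfec all transgenic arrays lay below the wild type arrays, as in 7.6% of all probe sets. In both lists 0 genes passed the adjusted threshold in limma, and the part of cells other than phagocytes in these levels was not tested. Without wild type replicate 1 the difference of the list mean went from -0.38 to -0.19 for the activation genes and from -0.42 to -0.20 for the lysosomal and lipid genes, and without wild type replicate 3 it was -0.66 and -0.64.

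Outside the members, the genes whose profile over the 6 arrays was most like the member mean were sought by correlation. Of 763 genes with an SD of at least 0.5 over the arrays, the 10 closest had Pearson correlations of 0.944 to 0.977. In order they were C3ar1, the receptor for complement C3a, Cd52, a small surface glycoprotein of leukocytes, Apobec1, Ctsd, Lyz2, Ctss, Ctsl, A2m, the chemokine Ccl3 and C1qb. Ctsd, Ctss and Ctsl encode lysosomal cathepsins, Lyz2 lysozyme and C1qb a chain of complement C1q. These genes were taken from the same arrays, 6 of the 10 were on the lists used here, and the correlations are given as a description. Ccl3 showed the pattern most widely, at 9.09, 7.42 and 6.82 in wild type and 9.17, 7.15 and 6.29 in transgenic lesions, with a difference of -0.24 (SE 0.82).

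The lesions differed in other ways that move with the genotypes or with the members. Myelin and mature oligodendrocyte genes averaged 9.58 to 9.99 on the wild type arrays and 8.65 to 9.08 on the transgenic arrays. All 11 measured genes were lower without overlap, as were 7.6% of all probe sets, with Ermn (-1.18), Myrf (-0.87) and Mag (-1.17) at the smallest p-values. The array highest in them was wild type replicate 1 and the lowest transgenic replicate 1, the 2 arrays with the highest member means. Genes of a list called oligodendrocyte precursors here averaged 6.95 to 7.32 and 6.62 to 6.88, with 7 lower and 1 higher. Sox10 was at -0.75, Olig1 at -0.36 and Olig2 at -0.71. Mature oligodendrocytes also express Sox10, Olig1 and Olig2, so their levels are not those of precursors alone. Astrocyte genes, the markers of the targeted cells, averaged 8.51 to 8.68 on the wild type arrays and 8.0 to 8.58 on the transgenic arrays. Their mean was lowest in transgenic replicate 1, and without that array its difference went from -0.23 to -0.05. By gene, 7 of 10 were lower and 3 higher, with Sox9 at -0.53, Slc1a3 at -0.48 and Mlc1 at -0.30. Neuronal genes averaged 8.42 to 8.67 and 8.63 to 9.0, with 1 gene lower and 9 higher, among them Nefh at 0.53, Slc17a6 at 0.71 and Nefl at 0.48. Striatal neuron genes averaged 5.99, 8.16 and 8.79 on the wild type arrays and 6.11 to 6.53 on the transgenic arrays, with Rgs9 at -1.48, Gpr6 at -1.41 and Drd1 at -1.09. Endothelial and pericyte genes averaged 6.34 to 6.36 and 6.07 to 6.54, with Slc2a1 at -0.29, Tek at 0.30 and Pdgfrb at -0.20. Cell cycle genes averaged 5.25 to 5.42 and 4.81 to 5.38, with 7 genes lower and 1 higher. Mki67 was at -0.46, Ccna2 at -0.63 and Bub1 at -0.43. None of the genes in this paragraph passed the adjusted threshold in limma, and the part of these differences in the member levels was not tested.

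By Xist and 3 Y-linked genes, the 3 wild type arrays and transgenic replicate 2 were female and transgenic replicates 1 and 3 male. The member mean was 8.94 and 7.14 in the 2 male lesions and 7.37 to 9.02 in the 4 female lesions. Both male lesions were transgenic, so sex and genotype are largely confounded. Only transgenic replicate 2 shares the sex of the wild type lesions, and the part of sex was not tested. With sex as a covariate, all 9 differences were below 0, from -2.94 for Gpnmb to -0.21 for Fabp5, at adjusted p-values from 0.33 up in limma. That fit compares transgenic replicate 2 alone with the wild type lesions.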

How the data were processed

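Per the submitters' processing notes, the authors normalized the arrays by RMA in Affymetrix Expression Console. The deposited values are linear intensities (array medians 40.4 to 48.3), whereas RMA gives log2, so log2 was taken here with no pseudocount. Scan dates, detection calls, software versions and the build: not given in the sources used here. Of 41345 probe sets, 23521 had 1 gene symbol in the platform annotation. All 41345 entered limma (version 3.58.1 in R 4.3.3), fitted by lmFit and eBayes without covariates, two-sided, with Benjamini-Hochberg adjustment at 0.05. Every unadjusted or adjusted p in the text is from limma unless it is called exact. Intervals and standard errors come from limma, and an SD is over 3 arrays, a number that limits the precision.

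The members, the 15 context lists and the tests were chosen with earlier results of these data known. The genes named are all members, the 3 genes of each list with the smallest p, and the 10 genes most like the member mean. No sample was left out of the main comparison, and 0 columns belonged to unknown samples. The fit was tested on simulated data. Alternatives covered normalization, a filter on dim probe sets, the variance model, the probe set of a gene, sex, pan-myeloid centring, a replicate block and leaving out each array.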

Additional observations from a re-analysis of the deposited data

How the results depend on the processing

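No member passed the adjusted threshold in limma under any of the 14 alternatives run, where the smallest adjusted p of a member was 0.33. Of all probe sets, 1481 passed with sex as a covariate, 335 without transgenic replicate 2, 169 relative to the pan-myeloid list and 0 under the others. The count at an unadjusted p under 0.05, 0 of 9 with all arrays, was 1 relative to the pan-myeloid list (Gpnmb; 1.47% of all probe sets), and 0 to 2 when each array was left out in turn (4.91% to 12.5% of all probe sets), with Lpl and Gpnmb passing without wild type replicate 3 or transgenic replicate 1. With the replicate number as a block the count was 4 (Lpl, Gpnmb, Clec7a and Cd68; 7.25% of all probe sets), at adjusted p-values of 0.593 or more. The labels state no link between arrays of 1 number, so the arrays were not treated as pairs. Over all probe sets the deviations of same-numbered arrays correlated at 0.01, -0.10 and -0.07. In the members the mean was 9.02, 8.36 and 7.51 in wild type and 8.94, 7.37 and 7.14 in transgenic lesions, in replicate order. A link within the members was not tested. The number of lower members lay between 4 and 9 and their median difference between -0.69 and 0.09; the median was above 0 relative to the pan-myeloid list (0.09) and without transgenic replicate 3 (0.02).

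Signs turned for the members with small differences. Fabp5 was at -0.03 after quantile normalization, -0.07 as the mean of its probe sets and -0.21 with sex as a covariate, where Trem2 was at -0.44 and Tyrobp at -0.58. Relative to the pan-myeloid list Cst7 was at 0.12 and Lgals3 at 0.09. Leaving out each array in turn gave -0.25 to 0.36 for Trem2, -0.57 to 0.68 for Tyrobp, -0.67 to 0.43 for Cst7, -0.67 to 0.04 for Lgals3 and -0.24 to 0.18 for Fabp5. Gpnmb, Lpl, Clec7a and Cd68 stayed below 0 under every alternative run, but leaving out 1 array gave -1.49 to -0.16 for Clec7a, -1.37 to -0.18 for Cd68, -1.10 to -0.55 for Lpl and -3.09 to -1.38 for Gpnmb. Of the list means, the sign of the homeostatic microglia (0.07) and pan-myeloid (0.11) differences turned without wild type replicate 1, of the neutrophil difference (0.08) without transgenic replicate 2, and of the T cell difference, -0.01 with all arrays, without wild type replicate 2 or transgenic replicate 2. The causes were not tested. Without detection calls, a low reading is not evidence that a gene is off.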
